A study of Arabidopsis thaliana with 4 samples.

Results

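On Affymetrix arrays of Arabidopsis thaliana rosette leaves, 77 probe sets of 8247 analysed had a higher signal without phosphate at 100 h and about equal signals in both solutions at 4 h. They were chosen by their measured intensities, after values under a floor of 7.25 were set to it. The no-phosphate array was 2-fold or more above the full-nutrient array at 100 h and at an intensity of 22.45 or more, and the solutions were within 1.4-fold at 4 h. Probe sets 2-fold or more higher at 100 h than at 4 h in full nutrients were left out, as were genes with symbols starting TBL, UGT or SCPL. The phosphate ratios at both times therefore describe the choice and have no test. Of the 77, 28 named 1 gene, 1 named several genes and 48 were not listed in the annotation used here.

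The plants were of the accession Col-5, were raised on agar and then kept hydroponically under constant light. Leaves were taken at 4 h or 100 h from plants in a full solution, which held 0.25 mM phosphate, or in one where phosphate was omitted and potassium sulphate added, and each of the 4 groups is 1 array. No value therefore has a replicate, and precision is limited by there being 4 arrays. The number of plants behind an array is not stated in the labels. The codes in the titles do not match the labelled hours, and that of the array labelled full nutrients at 100 h resembles those of the no-phosphate arrays. The labels were followed, and values against the full-nutrient array at 4 h are given where they differ.

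Phosphate is built into nucleic acids, phospholipids and ATP, and leaves short of it are known to replace part of their phospholipids by galactolipids and sulpholipids, to release phosphate from RNA and esters, and to accumulate starch and anthocyanins. Many of these responses are directed by the transcription factor PHR1, and they build up as stored phosphate in the vacuole is used. The plastid also makes plastoglobules, lipid droplets on the thylakoid whose number is known to grow under stress and nutrient shortage.

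The 4 arrays had been scaled alike, and at 100 h the no-phosphate array differed from the full-nutrient array in several technical measures. Its scanner background was 69.92 against 55.21. GAPDH, whose 3' to 5' signal ratio reflects how intact and fully labelled the RNA was, had 2.12 against 4.52. At 4 h this ratio was also lower without phosphate, at 2.61 against 4.07. Over the 9 spike-in probe sets the log2 ratio of no phosphate to full nutrients averaged -0.51 ± 0.12 at 4 h and -1.06 ± 0.24 at 100 h (SD, n = 9). The part of these differences in the values below was not tested. The leaf label was checked with photosynthesis genes, and RCA, the activase of Rubisco, lay between 4586 and 7395 on the 4 arrays. The dimmest of the 5 such genes with a probe set, LHCB4.3, lay between 55.7 and 270.3. Of their 6 probe sets, 1 was 2-fold or more lower without phosphate at 4 h. It was of PSBW, at 1625.4 against 5785.3. The other probe set of PSBW was at 3963.9 against 5358.3, a log2 ratio of -0.43, so the 2 differed. None of 6 root markers had a named probe set. Of 3 guard cell markers 1 had one, AT1G22690, at 120.9 (full) and 81.2 (no phosphate) at 4 h and at 96.6 and 219.3 at 100 h. Its log2 ratio was 1.18 at 100 h, within the range of the 77, and -0.57 at 4 h, which kept it out of them. The part of guard cells in the values below was not tested. In whole leaves, more RNA per cell and more cells of a type cannot be told apart.

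The median intensity of the 77 on the no-phosphate array at 100 h was 50.9, with a range from 22.6 to 662.3, against 67.7 over all 4756 probe sets that reached 22.45 on some array. Over the array, 206 of 4331 probe sets with a bright enough array, or 4.76%, were 2-fold or more higher without phosphate at 100 h. This share was 6.09% where the brighter 100 h array was under 50, 3.89% from 50 to under 100 and 4.29% at 100 or more. The 77 fell into these bands as 38, 14 and 25. Of the 206, 83 were within 1.4-fold at 4 h, of which 6 were left out for a higher level at 100 h in full nutrients and none for its symbol. A further 65 were 2-fold or more lower without phosphate at 4 h and 47 lower by 1.4-fold to 2-fold, while 8 were higher by 1.4-fold to 2-fold and 3 by more. The 56 that were called lower at 4 h and higher at 100 h had a median intensity of 126 without phosphate at 100 h and a median log2 ratio of 1.43 there, values set by the same arrays and not tested against the 77.

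The 100 h ratio of the 77 ran from 1.00 to 3.15 on the log2 scale, with a median of 1.23. On the same arrays, probe sets of the same gene differed in this ratio with an SD of 0.43 (log2, 193 probe sets of 91 genes), an error that leaves out differences between plants and between hybridisations. Of the 77, 20 were 3-fold or more higher and 5 were 4-fold or more higher. At 4 h their median log2 ratio was -0.04. In 6 probe sets both 4 h arrays were under the floor, which sets the 4 h ratio to 0. With no floor, 69 of the 77 were within 1.4-fold at 4 h, so for some dim members the equality rests on the floor. Among these members were AT1G09390, at 7.9 (full) and 2.2 (no phosphate) at 4 h before the floor, and AT4G21650, at 9.6 and 0.9. AT1G12010 was another, at 3.5 and 2.2. In 12 probe sets the full-nutrient array at 100 h was under the floor, so that the ratio is a lower bound, and in 4 all 3 other arrays were under it.

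The 77 were divided by their ratios of 100 h over 4 h in each solution, which describe the division and have no test. Probe sets of the same gene differed in these ratios with an SD of 0.54 without phosphate and 0.48 in full nutrients (log2). Without phosphate, 35 of the 77 were 2-fold or more higher at 100 h than at 4 h, a call made for 15.3% of all probe sets tested. In full nutrients, 14 were 2-fold or more lower at 100 h than at 4 h, a call made for 12.7% of all probe sets tested. One probe set met both, and 29 met neither. Both time ratios share an array with the 100 h ratio that chose the members, so these shares are not read against the background. The median log2 ratio for time was 0.98 without phosphate and -0.36 in full nutrients, where all probe sets at the level had -0.02 and -0.03. The rule favours medians on these sides, so nothing is read from this contrast either. The 35 had a median log2 ratio over time of 1.49 without phosphate and 0.00 in full nutrients, the 14 had 0.05 and -1.44, and the remaining 29 lay between them with 0.66 and -0.53, all of which follow from the division at 2-fold. In 49 of the 77 the level was above that of 4 h without phosphate and below it in full nutrients. The no-phosphate array at 100 h was the highest of the 4 in 68 probe sets and at least 2-fold above all 3 others in 28. The full-nutrient array at 100 h was at least 2-fold below all 3 others in 11. The rule itself favours these patterns. No share over all probe sets is given for the 49, 68, 28 and 11, and nothing is read from them.

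**Figure D1:**
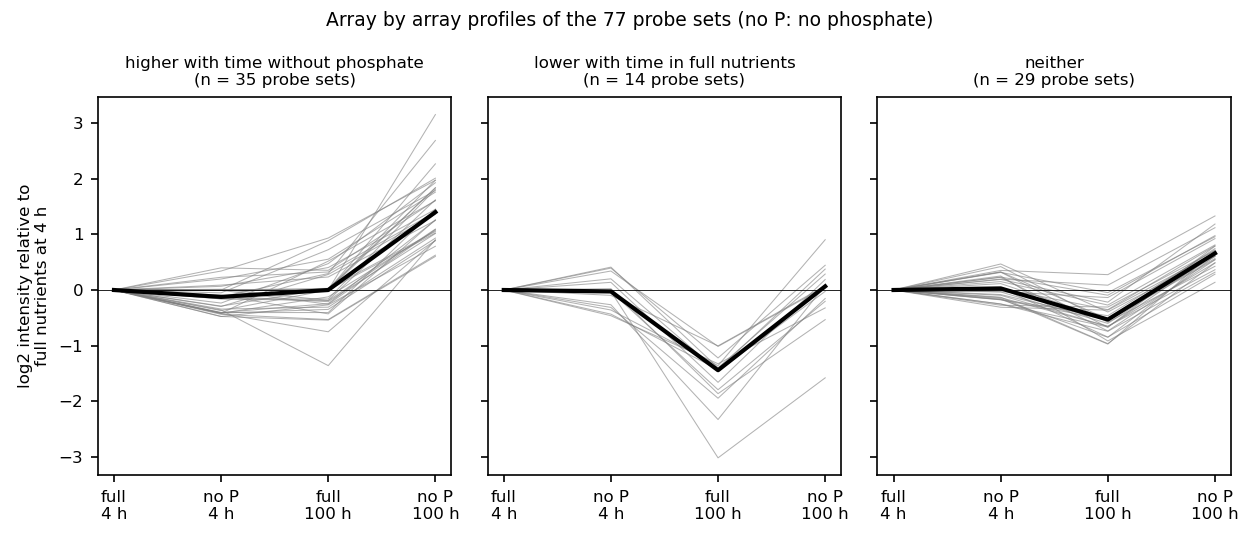
Each grey line joins the 4 log2 intensities of 1 probe set (vertical axis, relative to full nutrients at 4 h, values under the floor set to it) and the black line is the median, for probe sets 2-fold or more higher with time without phosphate (n = 35), 2-fold or more lower with time in full nutrients (n = 14) and neither (n = 29). One probe set is drawn in the first 2 panels, and the lines join separate arrays, not a time course of the same plants.

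**Figure D2:**
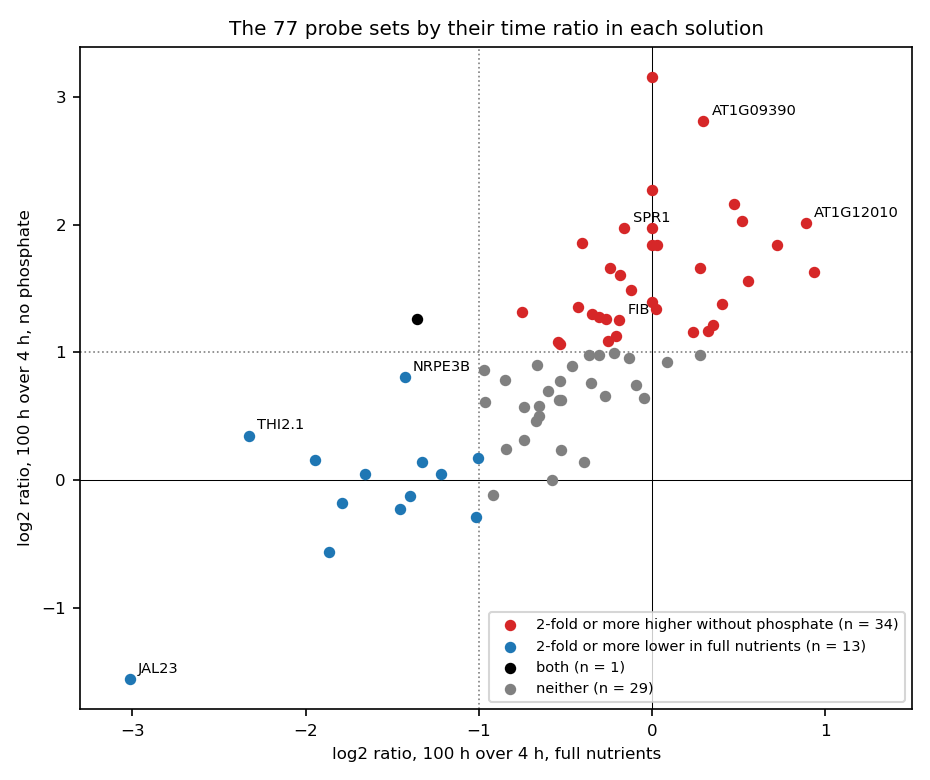
Each point is 1 of the 77 probe sets, with its log2 ratio of 100 h over 4 h in full nutrients on the horizontal axis and without phosphate on the vertical axis; dotted lines mark 2-fold. The points of JAL23 and THI2.1 lie at the left, where the level in full nutrients was lower at 100 h, and AT1G09390 has the highest vertical value of the named genes, below that of 14770_at.

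Genes of the plastid and of lipid metabolism included the brightest named gene. FIB encodes a fibrillin, a structural protein of plastoglobules. At 4 h its intensity was 242.6 in the full solution and 217.2 in the one lacking phosphate, and at 100 h it was 212.6 and 518.2; values of each gene below are given in this order. The first 3 arrays thus lay close together and the no-phosphate array at 100 h stood above them, 2.44-fold higher than full nutrients at the same time. GR, the glutathione reductase of plastids and mitochondria that keeps glutathione reduced, was at 48.4 and 55.2 at 4 h and at 41.6 and 110.1 at 100 h, a log2 ratio of 1.40 at 100 h. AT1G09390, a GDSL-type esterase or lipase gene, was near the floor on 3 arrays. It was at 7.9 and below the floor at 4 h and at 9.7 and 50.9 at 100 h, so that the last array was at least 5.25-fold above each of the others.

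Genes of nucleotide and nitrogen metabolism, and a gene of a phosphoglycerate mutase family, were also present. AT2G35390 encodes a phosphoribosyl pyrophosphate synthase, which makes the activated ribose phosphate used for nucleotides. It was at 91.4 and 89.2 at 4 h and at 60.3 and 144.4 at 100 h. The full-nutrient level was lower and the no-phosphate level higher at 100 h than at 4 h, and neither difference reached 2-fold. AAH, the allantoate amidohydrolase that frees ammonium from a breakdown product of purines, was at 14.6 and 11.3 at 4 h and at 14.6 and 29.7 at 100 h, a log2 ratio of 1.02. AT2G17280, of that mutase family, was at 15.9 and 11.9 at 4 h and at 14.6 and 33.4 at 100 h. For AAH and AT2G17280 the no-phosphate array at 100 h lay above the other 3, which were close to each other.

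Among 3 genes of proteases and their relatives, AT2G24280 was the brightest. This gene, of the serine carboxypeptidase S28 family, was at 69.9 and 81.9 at 4 h and at 87.5 and 184.4 at 100 h. BETA-VPE, a vacuolar processing enzyme that matures proteins in the vacuole, was at 12.2 and 9.1 at 4 h, under the floor with full nutrients at 100 h and at 22.6 without phosphate, at least 3.12-fold higher. AT4G21650, a subtilase gene, was at 9.60 and below the floor at 4 h, and below the floor and at 26.3 at 100 h, at least 3.63-fold higher. Its probe set is of the kind marked as matching a gene family, so signal from related subtilases cannot be told apart from its own. The level of BETA-VPE is just inside the intensity limit.

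Among the 4 named genes that were 2-fold or more lower with time in full nutrients were a thionin and a lectin. THI2.1 encodes the thionin, a small antimicrobial peptide. Its intensities were 36.4 and 30.3 at 4 h, below the floor with full nutrients at 100 h and 38.6 without phosphate, at least 5.32-fold higher. Only the full-nutrient array at 100 h stood apart, at least 4.18-fold below each of the other 3. JAL23, a jacalin-related lectin, was at 69.6 and 68.4 at 4 h and at 8.6 and 23.3 at 100 h. It was lower at 100 h in both solutions, with log2 ratios over time of -3.02 in full nutrients and -1.55 without phosphate. AT2G19440, of the glycosyl hydrolase family that holds beta-1,3-glucanases, was at 16.9 and 22.2 at 4 h and below the floor and at 23.0 at 100 h. The last named gene with this pattern was NRPE3B, a subunit of RNA polymerase V, which acts in RNA-directed DNA methylation. It was at 39.3 and 29.1 at 4 h and at 14.6 and 51.0 at 100 h.

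Transport and membrane traffic were represented by 3 genes with small ratios. PRA1.B2, a prenylated Rab acceptor that acts in vesicle traffic, was at 102.9 and 84.2 at 4 h and at 104.7 and 213.2 at 100 h. AT2G39130, of a family of amino acid transporters, was at 81.2 and 65.5 at 4 h and at 63.2 and 129.3 at 100 h. AT2G20780, of the polyol and monosaccharide transporters, was at 22.3 and 26.2 at 4 h and at 20.9 and 43.9 at 100 h. Their log2 ratios at 100 h were 1.03, 1.03 and 1.07, just past the limit of 2-fold. After quantile normalization those of PRA1.B2 and AT2G39130 were 0.98 and 0.99, and CDI and AT4G09670, below, had 0.99.

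Genes of growth and its control differed in level. SPR1, a microtubule-associated protein that keeps organ growth straight, was at 8.1 and below the floor at 4 h, and below the floor and at 28.4 at 100 h, at least 3.92-fold higher. AT1G12010, an ACC oxidase gene of ethylene synthesis, was below the floor on both 4 h arrays and at 13.4 and 29.2 at 100 h. It was thus higher at 100 h than at 4 h in both solutions, with log2 ratios of at least 0.89 in full nutrients and 2.01 without phosphate. AT2G32560, an F-box gene, was at 46.0 and 39.1 at 4 h and at 63.9 and 175.1 at 100 h, and the no-phosphate array at 100 h was at least 2.74-fold above each of the others.

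The other 9 named genes had no role sure enough to give here, or only a broad one. AT1G47640 was the brightest with a large ratio, at 101.8 and 91.6 at 4 h and at 51.9 and 166.2 at 100 h, a log2 ratio of 1.68. AT2G16835 was below the floor on 3 arrays and at 34.9 without phosphate at 100 h, at least 4.81-fold higher. AT4G09670, of an oxidoreductase family, was at 100.1 and 114.7 at 4 h and at 106.3 and 217.5 at 100 h. In AT1G47640 the 100 h arrays lay on either side of the 4 h arrays, while in AT4G09670 the first 3 arrays were alike. CDI, named for its induction by cadmium, was at 36.2 and 37.9 at 4 h and at 47.9 and 98.8 at 100 h. AT4G02860 was at 76.9 and 72 at 4 h and at 48.9 and 107.9 at 100 h. AT2G19340 was at 35.1 and 35.0 at 4 h and at 29.4 and 74.6 at 100 h. CDI and AT2G19340 thus differed from their 4 h levels mainly on the no-phosphate array, and AT4G02860 on both 100 h arrays, in opposite directions. AT4G33380 was at 48.7 and 43.1 at 4 h and at 33.7 and 73.9 at 100 h. AT1G23750 was at 16.4 and 14.6 at 4 h and at 9.1 and 25.1 at 100 h. AT2G34170 was at 10.9 and 12.5 at 4 h and at 16.0 and 36.9 at 100 h. Of these last 3, AT2G34170 was above its 4 h level in both solutions, and AT4G33380 and AT1G23750 were below it in full nutrients.

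**Figure D3:**
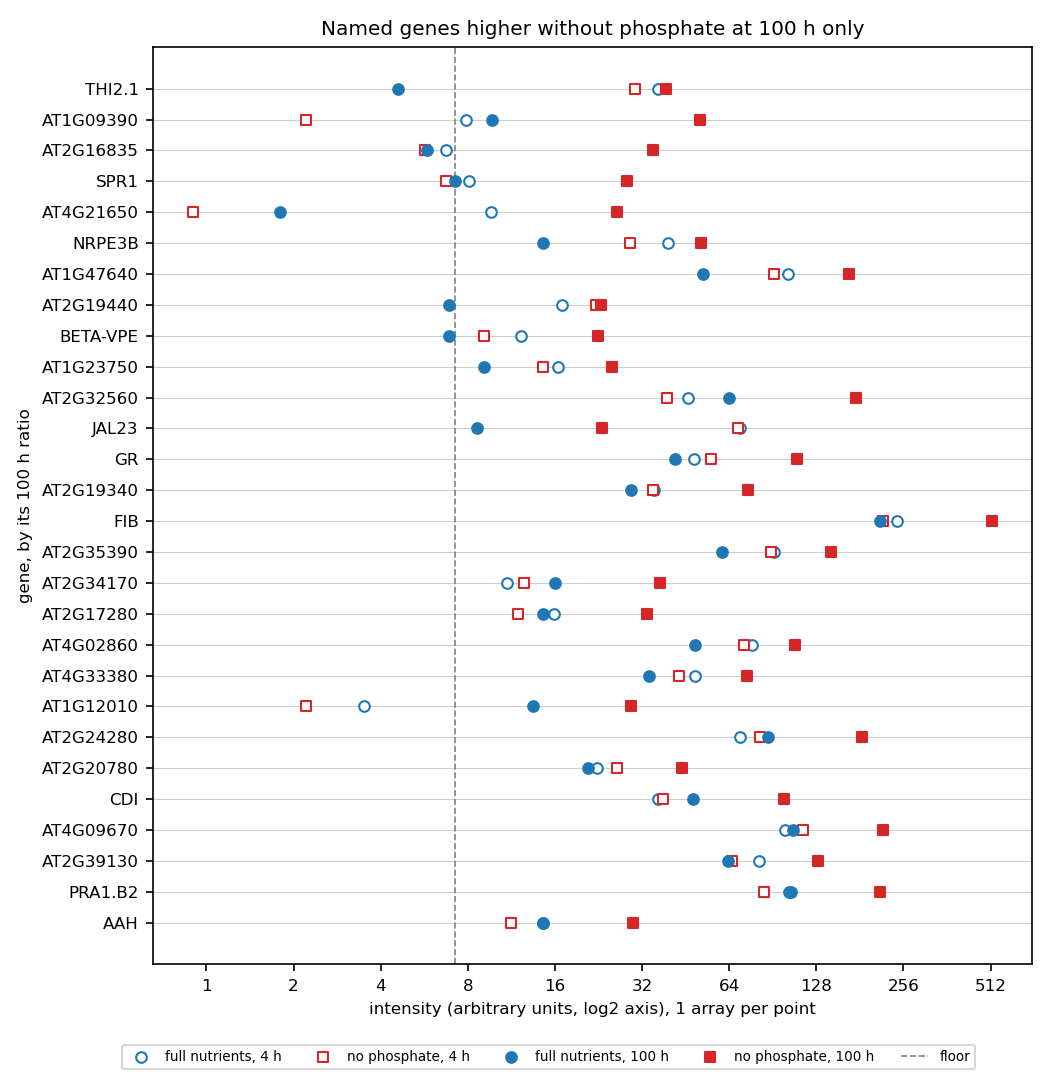
The 28 named genes are ordered by their ratio at 100 h, with the intensity on each of the 4 arrays on a log2 axis (1 array per point, no error bar; the dashed line is the floor). In most genes the filled square, no phosphate at 100 h, stands alone on the right. In THI2.1 the filled circle, full nutrients at 100 h, stands alone on the left. In JAL23 both filled symbols lie left of the open ones, the circle furthest.

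With the full-nutrient array at 4 h as the control for no phosphate at 100 h, 31 of the 77 and 16 of the 28 named genes were 2-fold or more higher, a call made for 9.71% of all probe sets tested. This ratio shares the no-phosphate array with the rule, so nothing is read from the shares. Of the 15 named genes that were 2-fold higher with time without phosphate, BETA-VPE alone did not reach 2-fold (log2 ratio 0.89). The 4 named genes that were lower with time in full nutrients did not reach it either, with 0.08 for THI2.1, 0.38 for NRPE3B, 0.44 for AT2G19440 and -1.58 for JAL23, which turned from higher to lower. Of the remaining 9, GR (1.19) and AT4G09670 (1.12) reached it.

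Other probe sets of the same genes are measurements that the rule did not use. Of the 28 named genes, 5 had 9 other probe sets among them, and none of the 9 met the rule. For AT2G32560 the other probe set was at 57.8 and 27.7 at 4 h and at 45.6 and 119 at 100 h. Its log2 ratio of 1.38 at 100 h was close to the 1.45 of the first, but at 4 h it had -1.06, where the first had -0.23. AT2G34170 had 0.99 at 100 h on its other probe set against 1.21, and -0.88 at 4 h. AT2G35390 had 0.97 on 1 of its others and -0.59 on the second. For AT2G24280 the 3 others had 0.52, 0.15 and -0.11 at 100 h against 1.08, and 0.52, 0.18 and 0.58 at 4 h. At 4 h, 4 of the 9 others, of AT2G32560, AT2G34170 and AT2G24280, were thus outside the limit of 1.4-fold. The other probe sets of THI2.1 were dim, with 1 below the floor on all 4 arrays and 1 at a log2 ratio of 0.41, against at least 2.41. One of the 9 was thus 2-fold or more higher at 100 h. The probe sets of AT2G24280, AT2G35390 and THI2.1 lay further apart than the SD of 0.43. That SD is of 1 probe set around its gene, and a gap between 2 probe sets varies more. The members were also chosen for a high ratio at 100 h, which favours lower values on the others. Whether these probe sets detect the same transcripts was not tested.

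**Figure D4:**
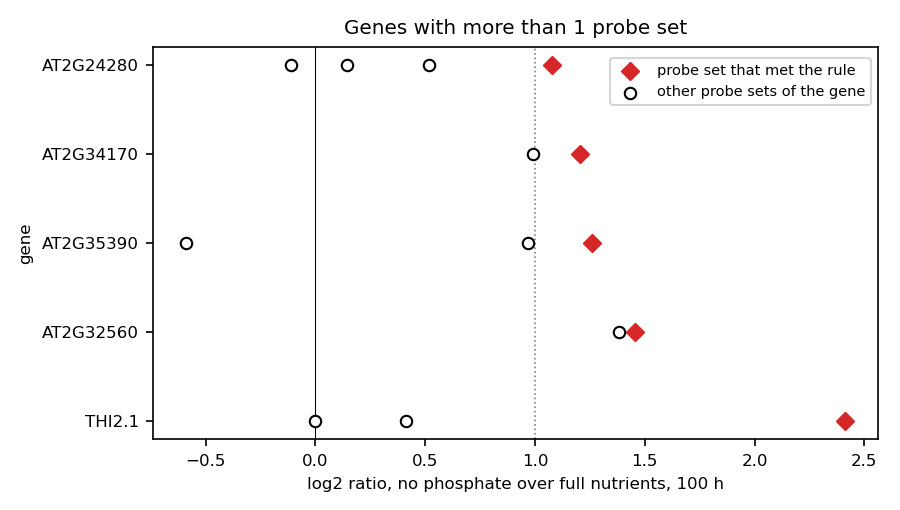
Log2 ratio of no phosphate over full nutrients at 100 h for the 5 named genes with more than 1 probe set; diamonds are the probe sets that met the rule and open circles the other 9. One open circle, of AT2G32560, lies past the dotted line of 2-fold.

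The 49 probe sets without a single gene name had log2 ratios at 100 h from 1.00 to 3.15 with a median of 1.16, and the 28 named had 1.02 to 2.41 with a median of 1.31. Probe set 14770_at had the largest ratio of all, below the floor on 3 arrays and at 64.5 without phosphate at 100 h, at least 8.90-fold higher. Probe set 20227_s_at was the brightest, at 383.2 and 479.1 at 4 h and at 240.7 and 662.3 at 100 h. Probe set 19717_at was at 56.2 and 56.7 at 4 h and at 49.4 and 172.8 at 100 h, 3.50-fold higher with no array near the floor. Its neighbour by number, 19718_at, was also among the 77, at 218.1 and 236.2 at 4 h and at 151.3 and 365.5 at 100 h. Another pair with consecutive numbers was 20315_i_at, at 82.4 and 108.6 at 4 h and at 105.3 and 251.6 at 100 h, and 20316_s_at, at 35.1 and 44.8 and then 42.5 and 88.3. Whether the probe sets of a pair detect the same transcript is not known here. Probe sets 12339_at and 17123_at were below the floor on 3 arrays and at 28.5 and 25.9 without phosphate at 100 h. These 8 were picked out after their values were seen. Among the 49, 20 were 2-fold or more higher with time without phosphate and 10 were 2-fold or more lower with time in full nutrients, 1 of them counted in both.

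Of features that the rule did not use, the kind of probe set was compared for all 77, and gene length and position for the 28 named. Probe sets marked as shared between transcripts, or as built on fewer probes, made up 27.3% of them and 28.6% of all probe sets at the level. Of the named genes, THI2.1, AT4G21650, NRPE3B, AT2G19440, GR, AT2G35390 and AT2G34170 were measured by such probe sets. The 28 named genes had a median length of 2153 bases in the RefSeq gene table, against 2279 over 1999 named probe sets at the level. The named genes did not lie next to each other: the closest pair, AT2G19340 and AT2G19440, were 11 protein-coding genes apart.

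Genes known for the phosphate response could hardly be followed. Of 137 genes in the pathway and marker lists, 11 had a named probe set and none was among the 77. These genes had 12 probe sets, and the members were 77 of 8247 analysed, so nothing is read from this absence. Of 44 phosphate starvation genes, 2 had a named probe set. WRKY6, a regulator of the phosphate exporter gene PHO1, was at 153.3 and 78.9 at 4 h and at 36.3 and 40.2 at 100 h, and LPR1 was below the floor on all 4 arrays. DFR, an enzyme of anthocyanin synthesis, was at 14.2 and 23.6 at 4 h and at 13.5 and 17.0 at 100 h. Neither WRKY6 nor DFR was 2-fold or more different between the solutions at either time, though WRKY6 came close at 4 h, with a log2 ratio of -0.96. LPR1, under the floor throughout, could not be called. APL3, a subunit of the starch enzyme ADP-glucose pyrophosphorylase, was higher without phosphate at both times, at 22.3 and 45.3 at 4 h and at 14.3 and 34.9 at 100 h, and so lay outside the 77. SBE2.2, the other gene of the starch and sugar list with a probe set, did not share this pattern. It was at 101.8 and 63.1 at 4 h and at 84.5 and 118.6 at 100 h, under 2-fold at both times.

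Values near the limits show how finely the members were divided from other probe sets. At 100 h the smallest ratio inside was 2.005-fold, for 18636_at, and the largest outside was 1.98-fold, for 19215_at. At 4 h 13347_at was inside at 1.391-fold and 12705_f_at outside at 1.402-fold. On the intensity of no phosphate at 100 h, BETA-VPE was inside at 22.6, and 15653_s_at at 21.9 and AT2G34190 at 21.8 were outside.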

How the data were processed

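The authors deposited linear intensities, 1 per probe set and array, for 8297 probe sets on 4 arrays. The software and any background correction, not given in the sources used here, are unknown. Each array had a mean of 100.2 after 2% of values were trimmed at each end, so no further scaling was applied. The 50 control probe sets were left out. The floor of 7.25 averages the 30th percentiles of the 4 arrays, and the level of 22.45 averages their medians. Ratios were taken on the log2 scale after the floor, with Python 3.11.15 and pandas 2.3.3. The code of the rule was checked on simulated arrays with little noise and only bright probe sets raised. That check does not measure how often the rule errs in these data. With 1 array a group no test was run, and calls are by size: 2-fold or more with the brighter array at the level.

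The platform annotation named 1 gene for 3794 probe sets and several for 70, and left 4383 unlisted. RefSeq's gene table (TAIR10.1) was used for names, lengths and neighbours, and matched 3792. The members and gene lists were chosen with earlier results of these data known. Among members with 1 gene, the naming rule took the 20 with the largest ratio, the 10 brightest, those with several probe sets or on a list, the 4 brightest of each function class, and the 3 on either side of each limit. It covered 24 of the 28, and AT1G12010, AT2G20780, CDI and AAH were added after their values were seen. The function classes could not be applied, because the annotation used here gives no descriptions, and the roles in the text are background knowledge.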

Additional observations from a re-analysis of the deposited data

Results flagged for a closer look

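Probe set 19865_g_at, which names no gene here, was the only one of the 77 with opposite 2-fold differences over time in the 2 solutions. At 4 h it was at 18.6 in the full solution and 14.5 in the other, and at 100 h below the floor and at 34.8. Its log2 ratio of 100 h over 4 h was 1.26 without phosphate and, as a bound, -1.36 in full nutrients. The difference was not tested, since each group holds 1 array.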

How the results depend on the processing

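Of the 77, 51 met the rule again with the floor at the 45th percentile (65 by the rule), 67 with no floor (67), 65 after quantile normalization (89) and 53 with a narrower band at 4 h (53). With the higher floor, 23 of the 77 were 2-fold higher with time without phosphate and 9 were 2-fold lower with time in full nutrients. It also took 9 of the 28 named genes under 2-fold at 100 h, among them SPR1 (log2 ratio 0.71), AT4G21650 (0.60) and JAL23 (0.43), since it replaces their low values. Scaling to the spike-ins, under which all probe sets at 100 h had a median log2 ratio of 1.06, gave 1214 by the rule and 46 of the 77. Over the 77 the median 100 h ratio was then 2.26, and 55 were higher with time without phosphate. Measured against full nutrients at 4 h, the rule found 145 and 31 of the 77 were 2-fold higher, and JAL23 had -1.58; the cause was not tested. A limit of 3-fold left 20 (median 1.82), of which 12 were higher with time without phosphate and 8 lower in full nutrients. These 2 counts were 21 and 8 in the narrower band, 71 and 32 among the 131 within 2-fold at 4 h, and 11 and 1 among the 25 at an intensity of 100 or more. No share over all probe sets is given for the counts over time under these settings, so they are not read as traits of the members. No paired analysis was possible because each group holds 1 array. The planned motif search was not run. An array under the floor limits the ratios of 8 of the 28 named genes.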
